A study of Caenorhabditis elegans with 15 samples.

Results

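The transcripts described here are the expressed pseudogenes of Caenorhabditis elegans, taken as the rows of the deposited count table that carry the biotype pseudogene and reach a total of at least 30 counts over 15 libraries. Of 1922 pseudogene rows, among 47111 rows in all, 783 met that rule, and 500 pseudogene rows had 0 counts throughout. The members were thus chosen by their own counts summed over these libraries, and being expressed is a condition of membership and not a result. Poly-A RNA was sequenced from whole young adults grown at 20 °C on Escherichia coli OP50, in 3 libraries for each of 5 genotypes. The groups are puf-8(ok302), puf-8(ust221), puf-8(ust222), puf-8(ust223) and wild type N2, and they differ, as far as the labels say, only at puf-8. The labels add the codes MUT-4A for ust221, MUT-4N for ust222 and MUT-8G for ust223, and the change that each ust allele makes in puf-8 is not given in the sources used here. Each library was made from a plate population of synchronised animals, so fewer cells of a tissue and less RNA per cell cannot be told apart.

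A pseudogene is a copy of a gene that has lost the open reading frame or other parts it would need to make the normal protein. In C. elegans many arose in large, fast-changing families, such as the F-box proteins that choose substrates for ubiquitin ligases and the seven-transmembrane chemoreceptors of sensory neurons. Some are still transcribed, and their RNA can be taken up by small RNA silencing, in which Argonaute proteins carry short guide RNAs, or by nonsense-mediated decay, which destroys messages with early stop codons. PUF-8 belongs to the Pumilio and FBF proteins, which bind the 3′ ends of mRNAs, and is best known from the germ line.

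The libraries held between 20969800 and 29352254 counts in all. The targeted gene, puf-8, had 7, 11 and 3 counts in the ok302 libraries, between 737 and 5008 in the ust libraries, and 2043, 3899 and 2267 in N2. In 3 libraries, ust222 replicates 1 and 3 and N2 replicate 1, the summed level of a list of 64 sperm genes was 74.5, 65.3 and 72.8 CPM (counts scaled to a fixed library size), against 701 to 2889 CPM in the other 12 libraries. The same 3 libraries had molting and larval cuticle genes at a summed 2101, 2078 and 2270 CPM, ok302 had them at 1435, 1869 and 1626 CPM, and the other 9 libraries at 170 to 827 CPM. Results that rest on the 3 libraries are given with and without them. Library sizes for CPM were adjusted with the TMM method, and a pseudogene was called different at an edgeR quasi-likelihood p under 0.05 after Benjamini-Hochberg adjustment over all 17217 genes tested.

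The expressed pseudogenes were a low-abundance class with a few abundant members. Together they took 0.573%, 0.631% and 0.561% of the counts in ok302, between 0.445% and 0.527% in the ust libraries, and 0.485%, 0.503% and 0.496% in N2. A mean of at least 10 CPM over all libraries was reached by 66 of the 783, at least 1 CPM by 328, and 455 stayed under 1 CPM. Counts were present in all 15 libraries for 358. Their median length was 1006 bases, against 621 bases for the 1139 pseudogene rows under 30 counts and 1191 bases for protein-coding rows with at least 30 counts. Chromosome V carried 255 of them (32.6%), a smaller share than among pseudogene rows under 30 counts (53.6%) and a larger one than among protein-coding rows with at least 30 counts (21.4%). A longer or more abundant transcript reaches 30 counts more easily, and these shares describe what the minimum total lets through.

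The minimum total cut through a continuum. There were 10 rows with exactly 30 counts, among them srx-91, srx-126, both of chemoreceptor classes, and B0513.7. The rows nearest below it were F56H11.6, miro-2 and T20D4.20, each with 29 counts. Ensembl release 115 (WBcel235), used to check the class, lists 779 of the 783 as pseudogenes, 3 as protein-coding (F45B8.5, Y48G1BM.6 and plg-1) and 1 as a lincRNA (F39E9.10).

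The typical member was more abundant in ok302 than in any other library, and ok302 replicates 1 and 2 held counts for the most members. A count was found for 764, 753 and 704 of the 783 in the ok302 libraries. The ust221 libraries held counts for 662, 662 and 704, ust222 for 658, 575 and 609, ust223 for 742, 743 and 707, and N2 for 653, 720 and 600. The ok302 range overlapped those of N2, ust221 and ust223. In ok302 replicate 3 fewer members were seen than in N2 replicate 2 or any ust223 library, and as many as in ust221 replicate 3. The median expressed pseudogene stood at 1.17, 1.13 and 1.09 CPM in ok302, against 0.352, 0.572 and 0.541 CPM in N2, and no other library exceeded 0.618 CPM. The median protein-coding gene moved the same way, at 8.54, 8.88 and 8.75 CPM in ok302 and 6.57, 5.76 and 5.41 CPM in N2. The number of detected transcripts depends on depth, and the ok302 libraries held 21328287 to 23161008 counts.

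**Figure D1:**
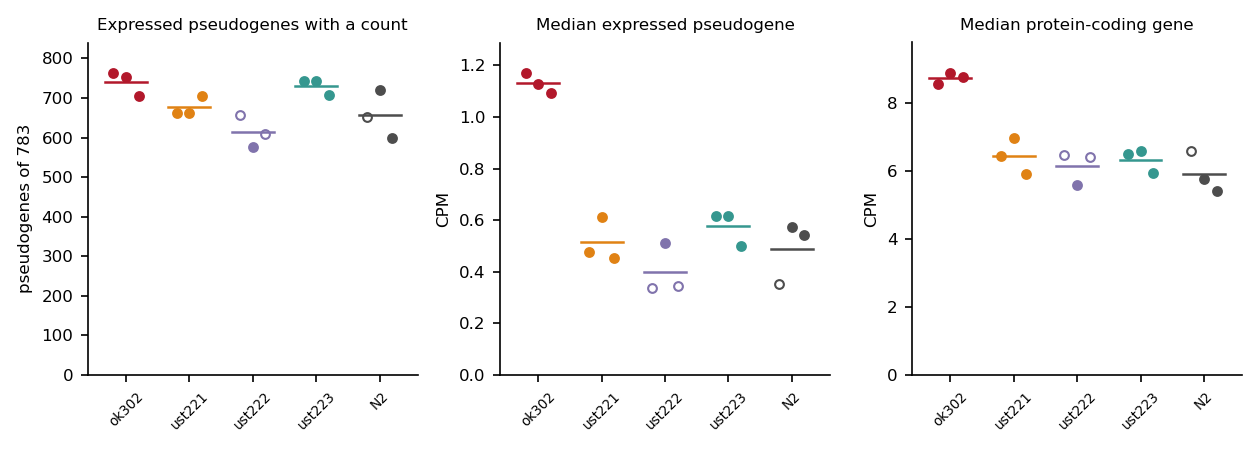
Number of the 783 expressed pseudogenes with at least 1 count (left), CPM of the median expressed pseudogene (middle) and CPM of the median protein-coding gene (right). Points are libraries, bars are means of 3, and open points mark the 3 libraries with few sperm transcripts; the ok302 libraries, at 1.09 to 1.17 CPM, lie above all others in the middle panel.

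The most abundant members were led by a group of neighbours. F07H5.5, F07H5.3 and F07H5.4 lie side by side on the plus strand of chromosome II, at 8787770-8789716, 8784535-8785513 and 8786457-8787119, and no domain or gene class is given for them. F07H5.5 was the highest of all, with 1156, 1331 and 1245 CPM in ok302 libraries, 853 to 1853 CPM in N2 libraries, and a range of 890 to 2060 CPM over the 9 ust libraries. Its fitted difference between ok302 and N2 was -0.05 ± 0.27 on the log2 scale (standard error; edgeR adjusted p = 0.90). F07H5.3 averaged 589 ± 72.5 CPM in ok302 and 361 ± 59.7 CPM in N2 (SD, n = 3 each), and missed the threshold (log2 fold change 0.71, edgeR adjusted p = 0.070). F07H5.4 had 117, 143 and 177 CPM in ok302, against 193, 52.6 and 44.5 CPM in N2, so that 1 N2 library lay above all ok302 libraries (log2 fold change 0.59, edgeR adjusted p = 0.35). Per kilobase of the deposited gene length these 3 had means of 850, 646 and 156 CPM. ZC513.7, next by level, averaged 287 ± 47.4 CPM in ok302 and 314 ± 54.0 CPM in N2, but it overlaps the coding gene algn-12 on the other strand, and the strand setting of the counting is not given in the sources used here. F07H5.5, F07H5.3 and ZC513.7 alone made up 29.2% to 54.7% of the class's CPM in a library. F56D5.4, of even level throughout, overlaps the coding gene F56D5.6 on the other strand and differed by 0.01 on the log2 scale between ok302 and N2 (edgeR adjusted p = 0.98).

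**Figure D2:**
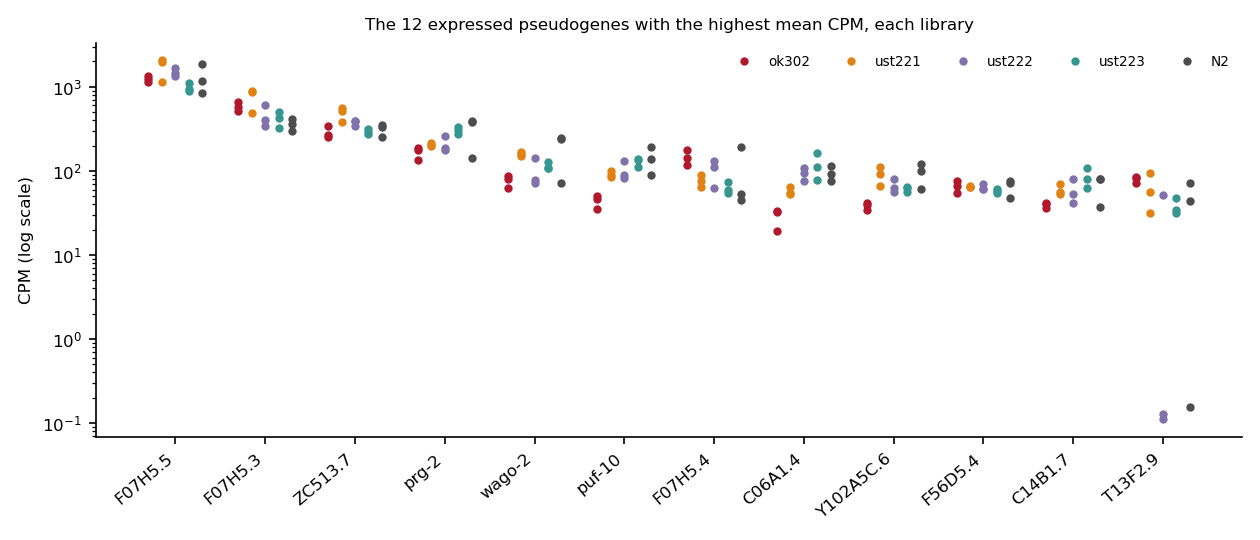
CPM (log axis) of the 12 expressed pseudogenes with the highest mean, in order of that mean, with 1 point per library coloured by genotype. The widest spread is that of T13F2.9, whose 3 low points are ust222 replicates 1 and 3 and N2 replicate 1.

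T13F2.9, on chromosome IV at 9768057-9768984 between the major sperm protein genes msp-79 and msp-78, separated the libraries instead of the genotypes. It had 1970, 2324 and 1758 counts in ok302, but 3, 1116 and 3 counts in ust222 and 4, 1240 and 1311 counts in N2. The low values fell in the same 3 libraries that held few sperm transcripts, and in every other library it had at least 829 counts. No comparison of a mutant with N2 was called for it.

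Comparison of ok302 with N2 asked how the class stood when puf-8 RNA was nearly absent. Of the 783 members, 602 passed the filter on low counts and 181 were not tested. In ok302 76 rose, where 8.45% of all genes tested rose, and 35 fell, where 15.4% of all genes fell. The median log2 fold change of the 602 was 0.71, against 0.10 over all genes tested. The filter itself favours transcripts that are high in 1 group: 21 tested members were above its level of 0.432 CPM only in ok302, and 10 of those are among the 76. With no filter, which takes in all 783, 68 rose and 30 fell, beside 4.91% and 10.8% of all genes, and the median was 0.78 against 0.09. The 24443 genes fitted there needed only a count in any library, whereas every member had at least 30 counts. The shares in that setting are therefore not like for like. With library totals alone as the scaling, 101 members rose and 22 fell, where 10.8% and 9.72% of all genes did. Without ust222 replicates 1 and 3 and N2 replicate 1, 711 members were tested, 173 rose and 84 fell, where 26.2% and 23.6% of all genes did. In that smaller set of libraries 32 of the 33 molting and larval cuticle genes also rose in ok302 and 1 fell, and 22 of 24 oocyte and eggshell genes fell; the part of either in the pseudogene counts was not tested.

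The median log2 fold change went down with the level in pseudogenes and in protein-coding genes. Below 1 CPM, 29 of 274 members rose (10.6%), with a median log2 fold change of 1.24, and 185 of 2634 protein-coding genes rose (7.02%), with a median of 0.89. Between 1 and 10 CPM, 41 of 262 members rose (15.65%) and 16 fell (6.11%), while 10.5% of 5684 protein-coding genes rose and 2.38% fell. The medians there were 0.65 for members and 0.67 for protein-coding genes. Above 10 CPM, 6 of 66 members rose (9.09%) and 19 fell (28.8%). Of protein-coding genes at that level 6.88% rose and 30.8% fell. The medians there were -0.58 for members and -0.42 for protein-coding genes. In each band a larger share of members than of protein-coding genes rose. Without the libraries with few sperm transcripts, 173 of 711 members rose, where 26.2% of all genes did. No excess of rises over all genes was seen there, while 84 members fell, where 23.6% of all genes did. The median log2 fold change there was 0.78 for members and 0.39 for all genes. Whether level accounts for the excess seen with all libraries was not tested.

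**Figure D3:**
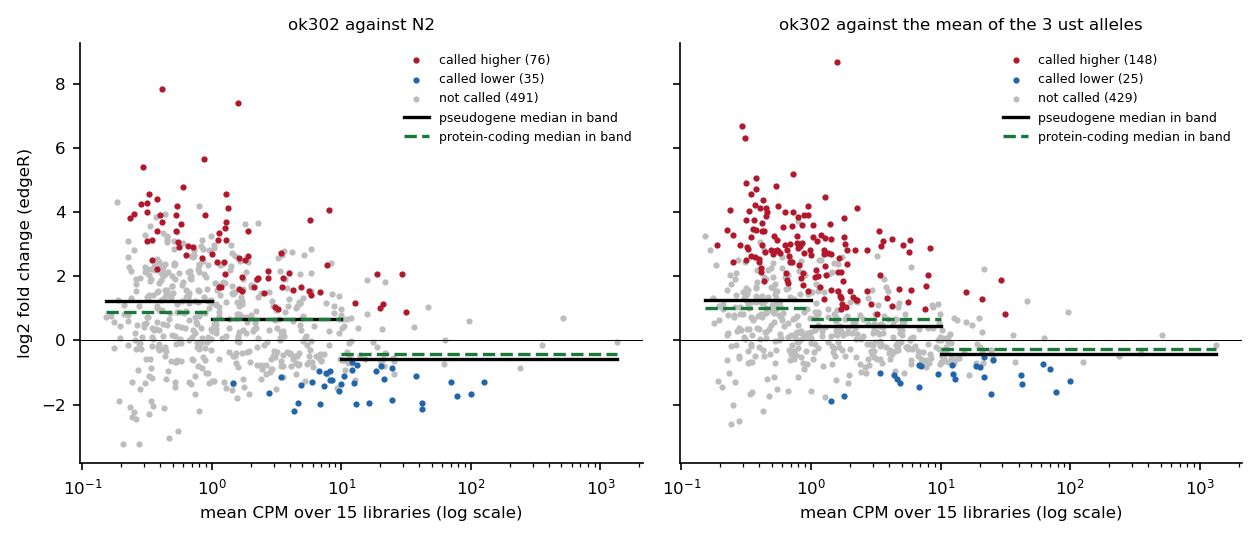
Log2 fold change of each tested expressed pseudogene against its mean CPM (log axis), for ok302 over N2 (left) and ok302 over the mean of the 3 ust alleles (right). Lines give medians in 3 level bands for pseudogenes (solid) and protein-coding genes (dashed); both fall from above 0 under 1 CPM to below 0 over 10 CPM.

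Among the members named by size of change that had counts in N2, srw-80 had the highest fold, a relic of the Srw class of chemoreceptor genes on chromosome V at 12238938-12240316. It had 186, 171 and 236 counts in the ok302 libraries, against 2, 1 and 0 counts in N2. Among the 9 ust libraries the highest value was 1 count and the median 0. Thus it was present in every ok302 library and close to absent from all 12 others. Its level in ok302 was 207-fold that in N2 by the ratio of mean CPM, and the ratio of summed counts had an exact 95% interval of 63.7 to 910, which covers counting error only. The fitted log2 fold change was 7.42 ± 0.91 (edgeR adjusted p = 0.00026). The coding genes next to it on either side had log2 fold changes of 1.302 for myo-3, a muscle myosin (edgeR adjusted p = 0.00086), and 0.36 for ttr-22, of the transthyretin-like family (edgeR adjusted p = 0.76). Further off on the myo-3 side, vab-8 had 0.97 (edgeR adjusted p = 0.046) and the cuticle collagen gene lon-3 had 2.62 (edgeR adjusted p = 0.087). Beyond ttr-22, slfl-5 had -0.57 (edgeR adjusted p = 0.078) and rad-50 had 0.81 (edgeR adjusted p = 0.15). tag-348, another expressed pseudogene, lies directly beside srw-80 on the same strand and was not tested, with 7, 12 and 24 counts in ok302 and 3, 0 and 3 counts in N2. Of the 54 chemoreceptor-class members 17 were tested and 2 rose in ok302, where 8.45% of all genes rose. Beside srw-80 the other was srh-163, at 0.867 CPM against 0.0499 CPM in N2 (log2 fold change 3.90, edgeR adjusted p = 0.021). The srh-163 call was lost in 3 of 13 alternatives, each of them the loss of 1 of the 6 libraries compared.

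Other members had many counts in ok302 and few in N2. F49F1.8, on chromosome IV, averaged 2.94 ± 0.847 CPM in ok302 and 0.0488 ± 0.0543 CPM in N2, a log2 fold change of 5.66 ± 1.21 (edgeR adjusted p = 0.0049). F49F1.3, a stretch of 159 bases on the same chromosome, had 71, 15 and 14 counts in ok302 and 0, 2 and 0 counts in N2, so its mean leans on ok302 replicate 1. ZK1025.1 had 23, 27 and 40 counts in ok302 and none in N2, and was at least 28.4-fold higher in ok302 against a floor of 3 counts over the N2 libraries. It was not silent elsewhere, with 10, 26 and 11 counts in ust223. Y6G8.9, which carries an F-box-type domain, averaged 3.28 ± 0.507 CPM in ok302 and 0.127 ± 0.138 CPM in N2 (log2 fold change 4.57 ± 0.77, edgeR adjusted p = 0.0013). srp-9, a serpin relic, averaged 1.10 ± 0.216 CPM in ok302 and 0.0419 ± 0.0373 CPM in N2 (log2 fold change 4.56 ± 1.29, edgeR adjusted p = 0.022). For Y116A8C.8 the values were 1.95 ± 0.176 CPM in ok302 and 0.0607 ± 0.0739 CPM in N2, and its edgeR adjusted p of 0.0498 lay at the threshold and was lost when any 1 of the 6 libraries compared was left out.

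In a cluster of DUF684-domain pseudogenes on chromosome II the 3 tested members rose. The domain is of unknown function, and the cluster was picked out after its values were seen. F45D11.1, F45D11.2, F45D11.3 and F45D11.4 lie on the plus strand between 1007792 and 1023528. F45D11.1 had 21.3, 20.6 and 14.9 CPM in ok302 and 0.548, 1.68 and 1.95 CPM in N2 (log2 fold change 3.77 ± 0.50, edgeR adjusted p = 0.00038). F45D11.3 had 57, 37 and 23 counts in ok302 and 1, 3 and 1 counts in N2, and F45D11.2 followed at 0.925 ± 0.226 CPM in ok302 and 0.0660 ± 0.0853 CPM in N2. All ok302 values of the 3 lay above all N2 values. The F45D11.2 call (edgeR adjusted p = 0.038) was lost in 6 of 13 alternatives, including the loss of any of 5 of the 6 libraries compared. F45D11.4, with at most 0.628 CPM in any library, was not tested. F45D11.2 and F45D11.3 passed the filter level of 0.432 CPM only through ok302. Outside ok302 their highest values were 0.205 and 0.270 CPM. The numbers of tested members that rose, here and over the whole class, therefore depend in part on the filter. The interleaved coding genes on the other strand, 2 rows with the name F45D11.16, also rose, by 2.16 and 3.25 on the log2 scale (edgeR adjusted p = 0.048 and 0.0050). These copies are alike in name and spacing, and reads shared among them cannot be assigned from the counts. Over the whole class, 4 of 5 tested DUF684 members rose in ok302, where 8.45% of all genes rose. With no filter 3 of 6 rose, where 4.91% of all genes did. Without the 3 libraries with few sperm transcripts 5 of 6 rose, where 26.2% did.

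Among the more abundant members that rose was drh-2, a relic of the Dicer-related helicases that includes the C-terminal domain of RIG-I, named here after its values were seen. It had 60.3, 87.4 and 65.2 CPM in ok302 and 8.72, 33.4 and 8.17 CPM in N2, and the groups did not overlap (log2 fold change 2.08 ± 0.57, edgeR adjusted p = 0.019). The ust libraries ranged from 12.1 to 48.4 CPM with a median of 15.996 CPM, all below ok302.

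**Figure D4:**
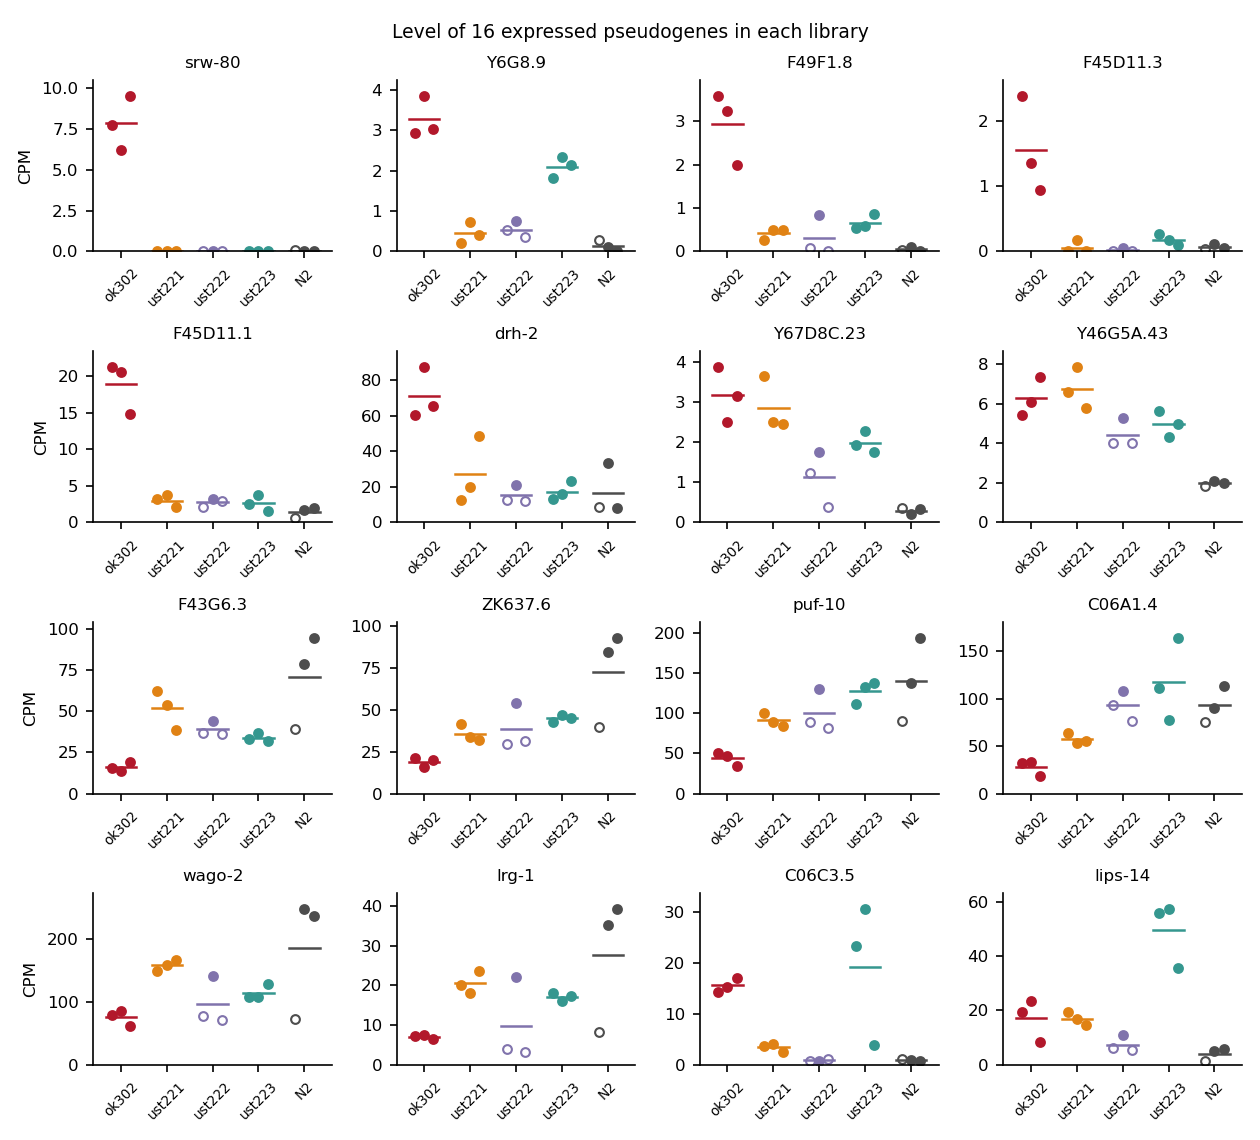
CPM of 16 expressed pseudogenes in each library, with ok302 at the left and N2 at the right of each panel, bars at the mean of 3, and open points for the 3 libraries with few sperm transcripts. The panels srw-80 to drh-2 stand highest in ok302, Y67D8C.23 and Y46G5A.43 lowest in N2, the panels from F43G6.3 to lrg-1 lowest in ok302 by mean, and lips-14 and C06C3.5 highest in ust223 by mean.

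The members that fell in ok302 were mostly the more abundant ones. F43G6.3 on chromosome II had 15.6, 13.4 and 18.9 CPM in ok302 and 39.4, 78.5 and 94.5 CPM in N2 (log2 fold change -2.15 ± 0.29, edgeR adjusted p = 0.00041). ZK637.6 on chromosome III had 21.0, 15.8 and 20.02 CPM in ok302 and 40.02, 84.8 and 93.1 CPM in N2 (log2 fold change -1.94 ± 0.31, edgeR adjusted p = 0.00092). In both, N2 replicate 1 was the N2 library nearest to ok302, yet the groups stayed apart. lrg-1, which carries a DEP domain, had 7.20, 7.53 and 6.52 CPM in ok302 and 8.33, 35.2 and 39.3 CPM in N2, with N2 replicate 1 close to ok302 (edgeR adjusted p = 0.044). The neighbours Y102A5C.5 and Y102A5C.6, both on the plus strand of chromosome V, fell by 1.86 ± 0.39 and by 1.28 ± 0.24 on the log2 scale. Y50D4C.2, which carries a zinc-binding dehydrogenase domain, averaged 2.53 ± 0.437 CPM in ok302 and 10.0 ± 1.49 CPM in N2. Y48G1BL.5, C10C6.9 and T23E1.2, with no domain given, fell by 2.21, by 1.98 and by 1.96 on the log2 scale.

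A relic of the PUF family itself was among them. puf-10, on chromosome I, is named for the RNA-binding family that also holds PUF-8. It had 49.9, 46.9 and 34.8 CPM in ok302, against 89.9, 138 and 194 CPM in N2, with no overlap (log2 fold change -1.68 ± 0.26, edgeR adjusted p = 0.00085). The 9 ust libraries ranged from 81.8 to 138 CPM with a median of 99.7 CPM, all above ok302.

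The 4 Argonaute-type members were all abundant, and 2 of them fell in ok302. Argonautes bind small RNAs, and wago-2 and prg-2 are named for the worm-specific and the Piwi branches. C06A1.4, which carries PAZ and Piwi domains, had 32.7, 33.003 and 19.006 CPM in ok302 and 75.4, 90.7 and 114 CPM in N2 (log2 fold change -1.72 ± 0.28, edgeR adjusted p = 0.0011). wago-2 had 80.2, 86.2 and 61.8 CPM in ok302 and 72.7, 249 and 237 CPM in N2, so that N2 replicate 1 lay inside the ok302 range (log2 fold change -1.29 ± 0.37, edgeR adjusted p = 0.023). prg-2 averaged 168 ± 27.8 CPM in ok302 and 305 ± 139 CPM in N2 and was not called (edgeR adjusted p = 0.0501), and C14B1.7 averaged 39.5 ± 3.27 CPM in ok302 and 66.1 ± 24.6 CPM in N2 (edgeR adjusted p = 0.096). Without the 3 libraries with few sperm transcripts all 4 fell, where 23.6% of all genes fell. Among coding genes of small RNA silencing, 19 of 47 tested also fell and 1, sago-1, rose, with a median log2 fold change of -0.74. Of all genes tested 15.4% fell and 8.45% rose. Of protein-coding genes above 10 CPM 30.8% fell, with a median log2 fold change of -0.42. Without the 3 libraries 32 of the 47 fell and 3 rose. prg-1, the coding Piwi gene, fell by 0.86 ± 0.22 on the log2 scale (edgeR adjusted p = 0.014). Near-identical copies such as prg-1 and prg-2 can share reads, and how the authors' counting treated such reads is not given in the sources used here. Of 9 smg genes of nonsense-mediated decay, smg-6 and smg-8 fell and none rose, and 5 of the 9 fell without the 3 libraries. In whole animals the 22 of 24 oocyte and eggshell genes that fell in ok302 moved with these germline Argonautes, and their part in the result was not tested.

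Pseudogenes with sperm-type domains were high in ok302, but mostly without a call against N2. Major sperm proteins drive the crawling of nematode sperm, and the sperm of C. elegans also hold many kinases and phosphatases. The 6 major sperm protein members summed to 123.5, 102.6 and 104.6 CPM in ok302, against 1.14, 29.5 and 46.3 CPM in N2, and to 0.485, 29.97 and 0.560 CPM in ust222. By edgeR none of the 6 was called against N2, 2 had an unadjusted p under 0.05, and DESeq2 called 1, which was higher. The sums were near 0 in the 3 libraries with few sperm transcripts, and ok302 lay above the other libraries as well. The sperm gene list did not stand out in ok302 in the same way, with summed levels of 2566, 1807 and 2133 CPM in ok302 and 72.8, 1709 and 2487 CPM in N2. Without the 3 libraries 4 of the 6 rose, where 26.2% of all genes tested rose. The coding and relic copies are very alike in this family, so their counts are uncertain.

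Kinase and phosphatase relics showed the same layout. The 15 protein kinase members summed to 50.1, 56.5 and 46.9 CPM in ok302, against 4.42, 21.4 and 18.8 CPM in N2. Their median log2 fold change was 2.07, and W02A2.4 and ZK593.9 rose, where 8.45% of all genes rose. W02A2.4 had 114, 127 and 81 counts in ok302 and 20, 23 and 9 counts in N2 (log2 fold change 2.58, edgeR adjusted p = 0.0015). The 6 protein tyrosine phosphatase members summed to 24.98, 26.6 and 23.9 CPM in ok302, against 0.939, 7.37 and 7.63 CPM in N2, and F48F5.2 and R09E10.9 rose among the 4 tested. F48F5.2 had 201, 238 and 182 counts in ok302 and 13, 82 and 37 counts in N2. The R09E10.9 call was lost in 9 of 14 alternatives and the F48F5.2 call in 1 of 14. In both groups the lowest libraries were again ust222 replicates 1 and 3 and N2 replicate 1. Without these, 9 of 15 kinase members rose and 1 fell, and 4 of 5 tested phosphatase members rose, where 26.2% of all genes rose and 23.6% fell. The kinase that fell there was wee-1.2, named for the Wee1 cell cycle kinases (log2 fold change -1.57 ± 0.56, edgeR adjusted p = 0.034), a member picked out after its value was seen.

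**Figure D5:**
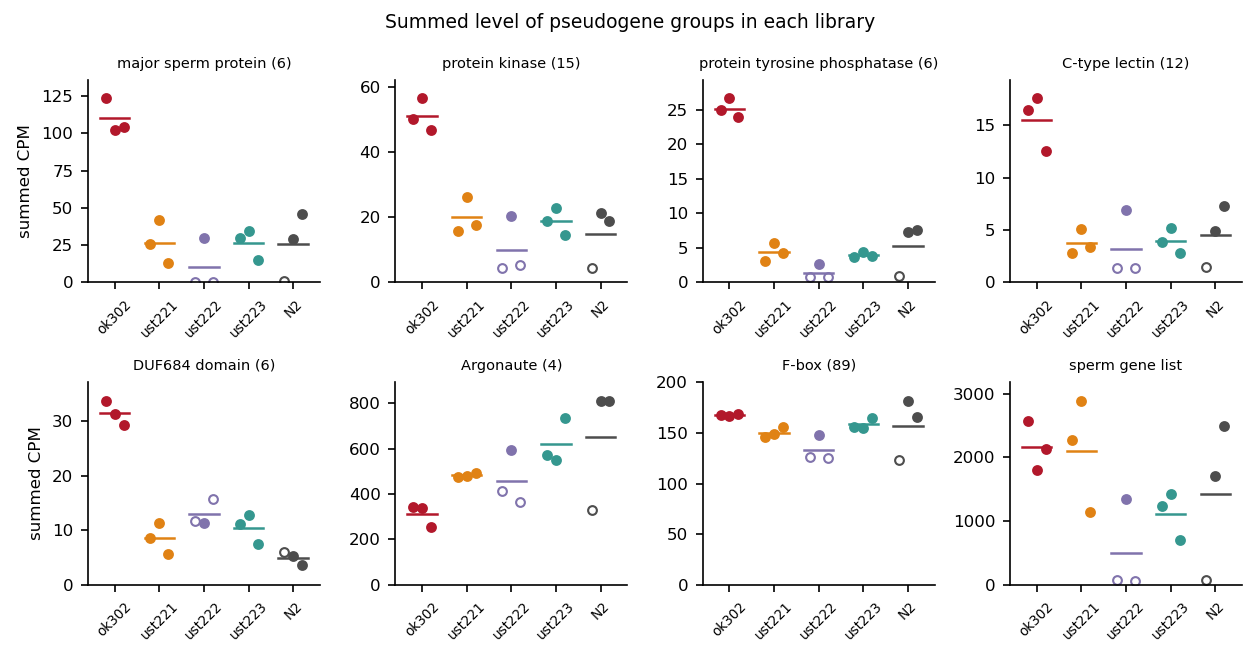
Summed CPM of 7 groups of expressed pseudogenes, with the number of members in brackets, and of the sperm gene list, in each library; bars are means of 3 and open points mark ust222 replicates 1 and 3 and N2 replicate 1. The ok302 libraries lie above all others for major sperm protein, kinase, phosphatase, C-type lectin and DUF684 members, and not for the sperm list.

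The F-box members, the largest named family with 89, moved in both directions. Of 73 tested, 9 rose and 2 fell in ok302, where 8.45% of all genes rose and 15.4% fell, with a median log2 fold change of 0.12. Without the 3 libraries with few sperm transcripts, 20 of 84 tested rose and 11 fell, where 26.2% and 23.6% of all genes did, and the median was 0.58. Added up, they reached 167.8, 166.7 and 168.9 CPM in ok302 and 123.3, 182.0 and 166.3 CPM in N2, so the totals overlapped. Y6G8.9 was among those that rose, and fbxa-212 and F29G9.7 were the 2 that fell, by 1.401 and by 1.29 on the log2 scale. Of 14 MATH and BTB members, substrate adaptors of another ubiquitin ligase type, 13 were tested and 2 rose. nhr-144 was the 1 of 9 nuclear hormone receptor members that rose, at 10.5 CPM against 3.59 CPM in N2 (log2 fold change 1.55, edgeR adjusted p = 0.029). Of 12 C-type lectin members 7 were tested and none was called by edgeR with 15 libraries, at a median log2 fold change of 1.92; 2 had an unadjusted p under 0.05, and DESeq2 called 2, both higher. Without the 3 libraries 3 of 11 tested C-type lectin members rose, as did 7 of 37 chemoreceptor members, 2 of 9 nuclear hormone receptor members and 3 of 14 MATH and BTB members. Of the MATH and BTB members 1 fell. In that setting 26.2% of all genes rose and 23.6% fell. In the cytochrome P450 group of 5, cyp-29A1 rose at 0.691 CPM against 0.0380 CPM in N2, while the far more abundant cyp-31A1 differed by 0.35 ± 0.20 on the log2 scale (edgeR adjusted p = 0.21). Of 7 members with a transposon or viral polymerase domain 4 were tested, and E03A3.1, with an integrase core domain, was the 1 that rose. E03A3.1 had 118, 184 and 80 counts in ok302, against 3, 18 and 7 counts in N2 (log2 fold change 3.68, edgeR adjusted p = 0.0020).

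Position and overlap with coding genes were described beside these counts. Of the 783, 92 overlap a protein-coding gene on either strand, and of the 691 that overlap none, 530 were tested, 73 rose and 33 fell, where 8.45% and 15.4% of all genes did. Of the 72 tested that overlap one, 3 rose and 2 fell. The median log2 fold change ran from -0.09 for the 45 tested on chromosome X to 1.05 for the 123 on chromosome IV. Medians by chromosome were not computed for protein-coding genes, so this range cannot be set against theirs. Across 602 pairs, the log2 fold change of a member and that of its nearest protein-coding gene had a Spearman correlation of 0.391. The same figure for protein-coding genes and their nearest coding neighbours was 0.316 over 16312 pairs. Both share libraries and normalization, and neither is a test.

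The contrast of ok302 with the mean of ust221, ust222 and ust223 holds no N2 library, but the filter on low counts, the scaling and the estimate of spread came from all 15 libraries. In ok302 148 of 602 members rose, where 13.8% of all genes rose, and 25 fell, where 13.7% fell, with medians of 0.66 for members and 0.16 for all genes. Without ust222 replicates 1 and 3 and N2 replicate 1, 247 of 711 rose and 71 fell, where 29.1% and 23.8% of all genes did. With only the ok302 and ust libraries fitted, 190 of 577 rose and 42 fell, where 20.3% and 18.1% of all genes did. Both this comparison and the one with N2 use the ok302 libraries. srw-80 had the largest rise among named members (log2 fold change 8.70 ± 0.62, edgeR adjusted p = 1.3e-05). C15H7.2, with a protein tyrosine kinase domain, had 62, 51 and 88 counts in ok302, a highest value of 17 counts over the 9 ust libraries and 0 in all 3 of ust222. Its mean CPM in ok302 was 14.6-fold the mean of the 3 ust alleles, and N2 had 0, 20 and 10 counts. R09E10.9, with a protein tyrosine phosphatase domain, had 33, 30 and 39 counts in ok302, at most 7 in a ust library, and 16.1-fold the ust mean. Its call against N2 was lost in 9 of 14 alternatives, including the loss of any 1 of the 6 libraries compared (edgeR adjusted p = 0.0237 to 0.0992). F13A2.6 and C04G2.12 stood 16.3-fold and 27.0-fold above the ust mean. AC3.13 averaged 2.25 ± 1.04 CPM in ok302, and the ust libraries had a median of 0.0753 CPM and a highest value of 0.279 CPM. F45D11.3 and F49F1.3 were also among the 8 largest rises. The coding genes on either side of F49F1.3 were higher too, F49F1.15 by 4.10 (edgeR adjusted p = 0.0093) and F49F1.4 by 3.16 (edgeR adjusted p = 0.032). Further off, drd-50 was not called (edgeR adjusted p = 0.9985). Of the rises named here, srw-80, AC3.13, F45D11.3 and F49F1.3 were above the filter level in no library outside ok302. The kinase group had 9 of 15 members higher, the phosphatase group 4 of 4 tested and the major sperm protein group 4 of 6. Without the 3 libraries with few sperm transcripts these were 12 of 15, 4 of 5 tested and 5 of 6, where 29.1% of all genes were higher.

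The members lower in ok302 than in the ust alleles included Y102A5C.5, F43G6.3, C06A1.4, Y50D4C.2, puf-10 and fbxa-212, which had also fallen against N2. Y73F8A.37 had a mean of 0.442 ± 0.374 CPM in ok302 and a ust median of 1.53 CPM (log2 fold change -1.88 ± 0.52, edgeR adjusted p = 0.018). C56A3.10 fell by 1.74 ± 0.44 on the log2 scale, and it overlaps R11G10.3 on the same strand, so its reads may belong to either. C14B1.7 of the Argonaute type fell by 0.75 ± 0.26 (edgeR adjusted p = 0.047).

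The ust alleles differed much less from N2. In ust221, 6 of 602 members were called, where 1.79% of all genes tested were; 5 rose, where 1.03% of all genes rose, and 1 fell, where 0.761% fell. With library totals alone as the scaling the split in ust221 was 7 higher and 12 lower, where 1.18% and 5.4% of all genes were. In ust223, 7 members were called, where 1.35% of all genes were; 6 rose and 1 fell, where 1.13% and 0.227% of all genes did. In ust222 none was called by edgeR in either direction, where 0.00581% of all genes tested were called (1 gene). At an unadjusted p under 0.05, 73 of 602 members passed in ust222, where 7.99% of all genes did, and DESeq2 called 5, with 2 higher and 3 lower, where 0.273% and 0.238% of all genes were. The ust222 and N2 groups each held libraries with few sperm transcripts and libraries with many. Without those 3 libraries 26 members rose and 16 fell in ust221, where 6.99% and 6.65% of all genes did, and 25 rose and 24 fell in ust223, where 7.84% and 3.32% did. The shares of members called with 15 libraries lay near those of all genes.

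Y67D8C.23 and Y46G5A.43 were the 2 members called in 3 alleles, and both were higher in ok302, ust221 and ust223 than in N2. Y67D8C.23, on chromosome IV at 3051756-3052358, had 3.89, 2.51 and 3.16 CPM in ok302, 3.66, 2.51 and 2.45 CPM in ust221, 1.23, 1.77 and 0.387 CPM in ust222, 1.93, 2.29 and 1.76 CPM in ust223 and 0.352, 0.215 and 0.325 CPM in N2. N2 was below every mutant library. Its log2 fold changes over N2 were 3.41 ± 0.54, 3.26 ± 0.54 and 2.73 ± 0.53 in ok302, ust221 and ust223 (edgeR adjusted p = 0.00091, 0.016 and 0.021). The call was lost in 6 of 14 alternatives in ust223, where the loss of any of 5 of the 6 libraries compared was enough, in 2 of 14 in ust221 and in 0 of 14 in ok302. Y46G5A.43, on chromosome II at 12742546-12744256, had 5.44, 6.08 and 7.33 CPM in ok302, 6.57, 7.87 and 5.76 CPM in ust221, 3.99, 5.298 and 4.00 CPM in ust222, 5.64, 4.31 and 4.99 CPM in ust223 and 1.84, 2.07 and 2.00 CPM in N2. Again no mutant library reached down to N2. The log2 fold changes were 1.67 ± 0.28, 1.77 ± 0.28 and 1.33 ± 0.28 in ok302, ust221 and ust223 (edgeR adjusted p = 0.0013, 0.014 and 0.032). Its call was lost in 8 of 14 alternatives in ust223, again including the loss of any of 5 of the 6 libraries, in 1 of 14 in ust221 and in 0 of 14 in ok302. The 4 comparisons with N2 share the 3 N2 libraries, so a low N2 value enters all of them.

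In ust221 the other rises were cal-6, Y48G1BM.6 and Y116F11B.10. cal-6, of a calmodulin-related class, had 1.36, 1.62 and 0.753 CPM in ust221 and 0, 0.107 and 0 CPM in N2 (log2 fold change 4.80 ± 1.075, edgeR adjusted p = 0.041). Y48G1BM.6, which carries a DUF1280 domain of unknown function, had 11.5, 11.8 and 7.80 CPM in ust221 and 1.41, 3.47 and 2.49 CPM in N2 (log2 fold change 2.07, edgeR adjusted p = 0.032). Y116F11B.10 averaged 6.03 ± 1.37 CPM in ust221 and 1.49 ± 0.374 CPM in N2. F43D2.2 was the member that fell, at 13.1 ± 0.842 CPM in ust221 and 32.8 ± 10.6 CPM in N2. ust221, ust222 and ust223 were not tested against each other here.

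In ust223 the largest rise was C06C3.5, at 23.4, 30.6 and 3.79 CPM in ust223 and 1.10, 0.966 and 0.704 CPM in N2 (log2 fold change 4.37 ± 0.62, edgeR adjusted p = 0.0030). The third ust223 library lay far under the other two but still above N2, and the row overlaps the chemoreceptor gene srh-48 on the other strand. It also rose in ok302, at 14.4, 15.2 and 17.1 CPM (log2 fold change 4.07, edgeR adjusted p = 0.000715), while ust222 stayed at 1.16 CPM or less. In ust221 it had 3.73, 4.07 and 2.45 CPM, all above N2, and was not called (log2 fold change 1.87, edgeR adjusted p = 0.095). lips-14, a lipase relic, had 55.7, 57.4 and 35.4 CPM in ust223 and 1.45, 4.97 and 5.79 CPM in N2 (log2 fold change 3.61 ± 0.52, edgeR adjusted p = 0.0035). Its ok302 values of 19.5, 23.4 and 8.27 CPM lay between those (log2 fold change over N2 2.07, edgeR adjusted p = 0.0091). Y6G8.9 had 1.81, 2.32 and 2.13 CPM in ust223 and 0.274, 0.107 and 0 CPM in N2. fbxa-187, an F-box relic, averaged 1.63 ± 0.289 CPM in ust223 and 0.444 ± 0.0223 CPM in N2. F40E3.7 was the member that fell, at 0.480 ± 0.163 CPM in ust223 and 2.21 ± 0.577 CPM in N2 (log2 fold change -2.19 ± 0.41, edgeR adjusted p = 0.018).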

How the data were processed

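The deposited file gives unnormalized counts of reads for every gene in 15 libraries, along with biotypes, lengths, coordinates and domain descriptions. Per the submitters' processing notes HISAT2 2.0.5 was used. Not given in the sources used here are the counting program, its treatment of multi-mapping reads and strand, the build and the gene models. Coordinates are as deposited; 775 of the 783 pseudogenes have the same start and end in Ensembl 115. Names came from RefSeq by locus tag (774), a gene name table (4) or the annotation (5). Symbols and domains placed pseudogenes in families, of which those with at least 5 members were described, beside the 4 Argonaute members and drh-2.

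Counts were fitted with edgeR 4.0.16 in R 4.3.3 (filterByExpr on genotype, TMM, glmQLFit and glmQLFTest with a mean per genotype over 15 libraries), adjusted by Benjamini-Hochberg over all 17217 genes tested and called under 0.05. The error after a log2 fold change is its standard error, the absolute value over the square root of F. Nothing says that replicates came from separate cultures, so p-values measure the spread between these libraries. Named pseudogenes were, per comparison, up to 8 per direction with the largest called change, at least 20 mean counts in the higher group and no overlap of libraries; the 12 with the highest mean CPM; those called in 3 or 4 alleles; and 3 rows on each side of 30 counts, the first by gene ID among 10 tied at 30. Family members named beyond that were chosen after their values were seen. The closest coding gene by sequence was not used here. Members and lists were chosen with earlier results of these data known. Alternatives were DESeq2 1.42.0, other scaling, other filters, fewer libraries and a replicate block.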

Additional observations from a re-analysis of the deposited data

How the results depend on the processing

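All counts here are of expressed pseudogenes called. Without N2 replicate 1 and ust222 replicates 1 and 3, calls were 257 for ok302 against N2 (173 higher, 84 lower), 42 for ust221, 49 for ust223 and 318 for ok302 against the ust alleles; 110 of the 111 and 172 of the 173 called with 15 libraries remained. The lone ust222 library was then assumed to vary like the others. DESeq2 called 187, 42, 5 and 23 for ok302, ust221, ust222 and ust223 against N2, where edgeR called 111, 6, 0 and 7. Library totals alone, in place of TMM, moved the median log2 fold change of all genes to 0.30 for ok302 against N2 (0.10 with TMM), -0.34 for ust221 (-0.09) and 0.38 for ok302 against the ust alleles (0.16). For ust221, RLE size factors gave 13 and library totals alone 19 (7 higher, 12 lower, against 5 and 1). With only the compared libraries fitted, ust221 and ust223 had 0 calls each. Leaving out 1 library at a time gave 56 to 161 calls for ok302 against N2 (161 without N2 replicate 1, 56 without N2 replicate 3, 62 without ok302 replicate 2), 2 to 25 for ust221 (25 without N2 replicate 1, 2 without N2 replicate 3, 3 without ust221 replicate 2), 0 to 24 for ust222 (24 without N2 replicate 1, 18 without ust222 replicate 2), 2 to 13 for ust223 (13 without N2 replicate 1, 2 or 3 without each other library) and 111 to 248 for ok302 against the ust alleles (111 without ok302 replicate 2). The cause was not tested. Replicate numbers showed no steady pairing of mutant with N2 libraries: correlations of same-numbered deviations ran from -0.64 to 0.785, both for ust222. Between ust221 and ust223 the same-numbered values were 0.138, 0.254 and 0.318, and the differently numbered ones ran from -0.250 to 0.049. Whether libraries of these alleles were paired was not tested. With the replicate number as a block, calls were 110, 5, 0, 5 and 181 for ok302, ust221, ust222 and ust223 against N2 and for ok302 against the ust alleles. Of 96 calls on named pseudogenes, 52 held under every setting that gave a value and none changed direction. Calls lost most often were, against N2, Y116A8C.8 and lrg-1 in ok302 (7 of 14 each), R09E10.9 in ok302 (9 of 14), Y46G5A.43 and fbxa-187 in ust223 (8 of 14 each) and, against the ust alleles, Y48G1BL.5 and ZK1025.1 in ok302 (11 of 20 each). Most members have few counts, so missed differences at low levels cannot be told from none.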
